A study of Mus musculus with 2 samples.

Results

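Myoblast fusion is the step at which mononucleated muscle precursor cells merge into multinucleated fibres. The cells first recognise and adhere to each other, actin is then remodelled at the contact, and the membranes finally join through muscle membrane proteins. The 9 genes described here, chosen by name, cover these steps: Mymk for membrane merger, Jam2 and Jam3 for adhesion, Cav3, Dysf and Myof for the muscle membrane, and Elmo1, Dock1 and Rac1 for actin remodelling. All 9 were found among the 18193 genes that GEO's platform annotation names on the array, with 20 of the 34945 probe sets assigned to 1 gene. No probe set assigned to several genes named any of them.

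The samples were primary myoblasts of newborn Sv129 mice, grown on laminin and collagen. For 4 hours both groups were in low-serum medium (DMEM and 2% horse serum), and one of them also received Wnt3a at 100 ng/ml, a Wnt family ligand that signals through β-catenin. The question is how these transcripts respond to that exposure. Each group had 1 array, so each value stands alone, no difference has a replicate check, and no test or p-value can be given. The labels do not say how many animals or cultures fed each array.

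Values are array intensities as deposited, turned into log2(intensity + 1), and a difference is Wnt3a minus control on that scale. A gene was counted as measured where its brightest probe set reached a floor of 6 (an intensity of 63) on at least 1 array, which held for 11397 genes and for all 9 fusion genes. The arrays were of myoblasts by their markers, since Myod1, Myf5 and Pax7 lay at 13.41, 11.96 and 11.20 in the control. Markers of differentiated muscle were present as well. In the control they ran from Mylpf at 12.80 and Acta1 at 12.74 down to Ckm at 7.24, with Myh8 below the floor. Axin2, a standard target of β-catenin signalling, was 12.2-fold higher on the array labelled Wnt3a. The central 95% of measured genes differed by between -0.33 and 0.33. The pooled SD of the differences given by the probe sets of a gene was 0.12, over 5084 genes with several at the floor. This SD is a spread between probe sets read on the same 2 arrays, and does not measure variation between cultures or hybridisations.

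The fusion genes differed little between the arrays. On their brightest probe sets 5 were higher with Wnt3a (Cav3, Mymk, Dock1, Jam2 and Rac1) and 4 lower (Elmo1, Jam3, Myof and Dysf). Of all measured genes 47.3% were higher and 51.2% lower, and the rest had the same value on both arrays. The differences ran from -0.10 for Elmo1 to 0.32 for Cav3, with a median of 0.02 against -0.0057 over all measured genes. Cav3 was the 1 member at least 1.2-fold higher, as were 4.04% of measured genes, and 0 members were at least 1.2-fold lower, against 4.55%. None of the 9 reached 1.5-fold in either direction, a size seen in 0.886% of measured genes on the high side and 0.342% on the low side. A count of 1 in 9 genes says nothing particular about them. Each of the 9 differences also lay inside the central 95% of measured genes of like brightness (mean within 0.5 of the member's own), and 7 of 9 were smaller than 0.12.

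**Figure D1:**
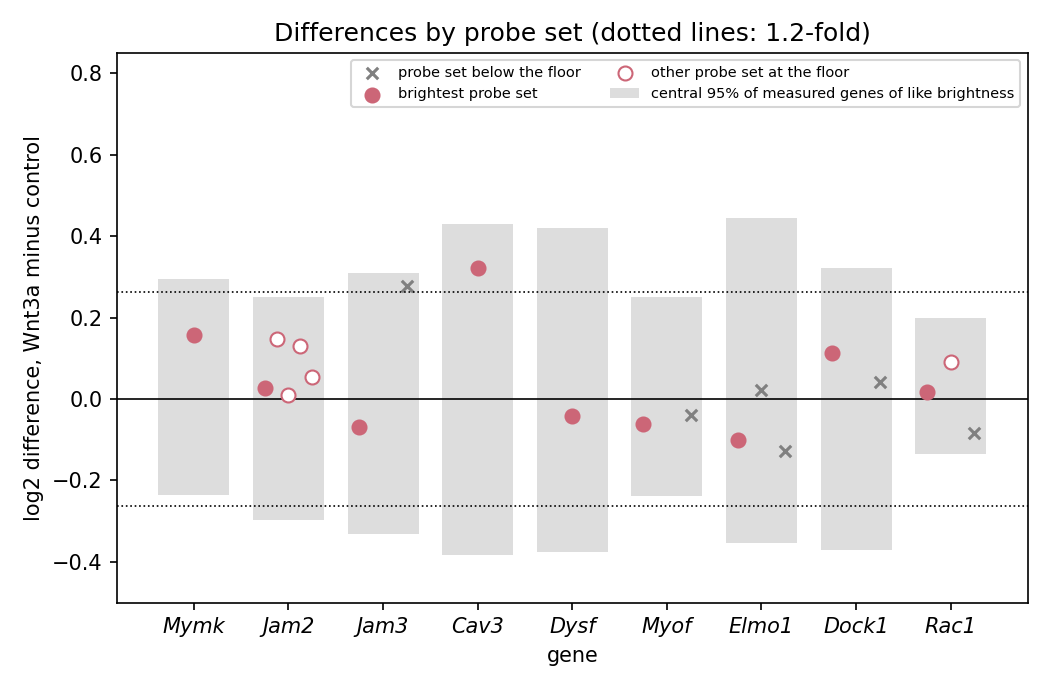
Log2 difference, Wnt3a minus control, of every probe set of the 9 fusion genes (1 array per group), with filled circles for the brightest probe set of a gene, open circles for its other probe sets at the floor, crosses for those below it, grey bars for the central 95% of measured genes of like brightness and dotted lines at 1.2-fold. Each filled circle lies within its grey bar, and the one for Cav3, at 0.32, is the only one past a dotted line.

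Directions this small depend on the scale. The 42 spike-in control probe sets were all lower on the Wnt3a array, with a median difference of -0.19. Scaling on them adds 0.19 to every difference, so that all 9 members become higher, while the median over all measured genes becomes 0.19 too. Relative to the other genes, nothing changes by that step.

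**Figure D2:**
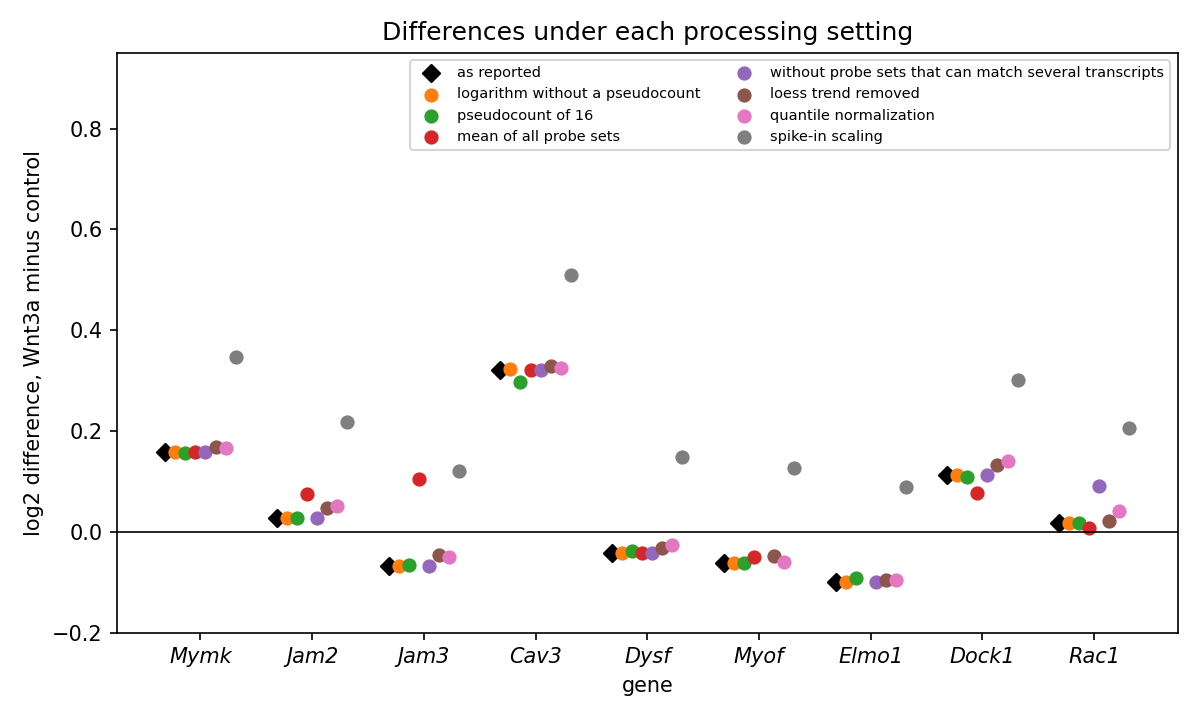
Log2 difference, Wnt3a minus control, of each fusion gene as reported (diamonds) and under the processing settings that can change it (circles), with 1 array per group. The grey circles of spike-in scaling lie above 0 for all 9 genes, and Cav3 is the highest gene in each setting, between 0.30 and 0.51.

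Mymk encodes myomaker, the muscle-specific multipass membrane protein without which myoblasts adhere but do not merge. Its single probe set read 4061 in the control and 4530 with Wnt3a, or 11.99 and 12.15 on the log2 scale. The Wnt3a value was the higher by 0.16, a fold of 1.12. Of measured genes, 24.4% differed by at least this much in either direction. Among the 685 genes of like brightness 12.4% did, with a central 95% from -0.24 to 0.29. The transcript was thus far above the floor on both arrays, and the difference was of an ordinary size for so bright a probe set. Mymx, which encodes myomixer, the small protein that completes membrane merger together with myomaker, was at 6.88 in the control and 6.78 with Wnt3a. Its difference of -0.10 was opposite in sign to that of Mymk, but became 0.08 under spike-in scaling.

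**Figure D3:**
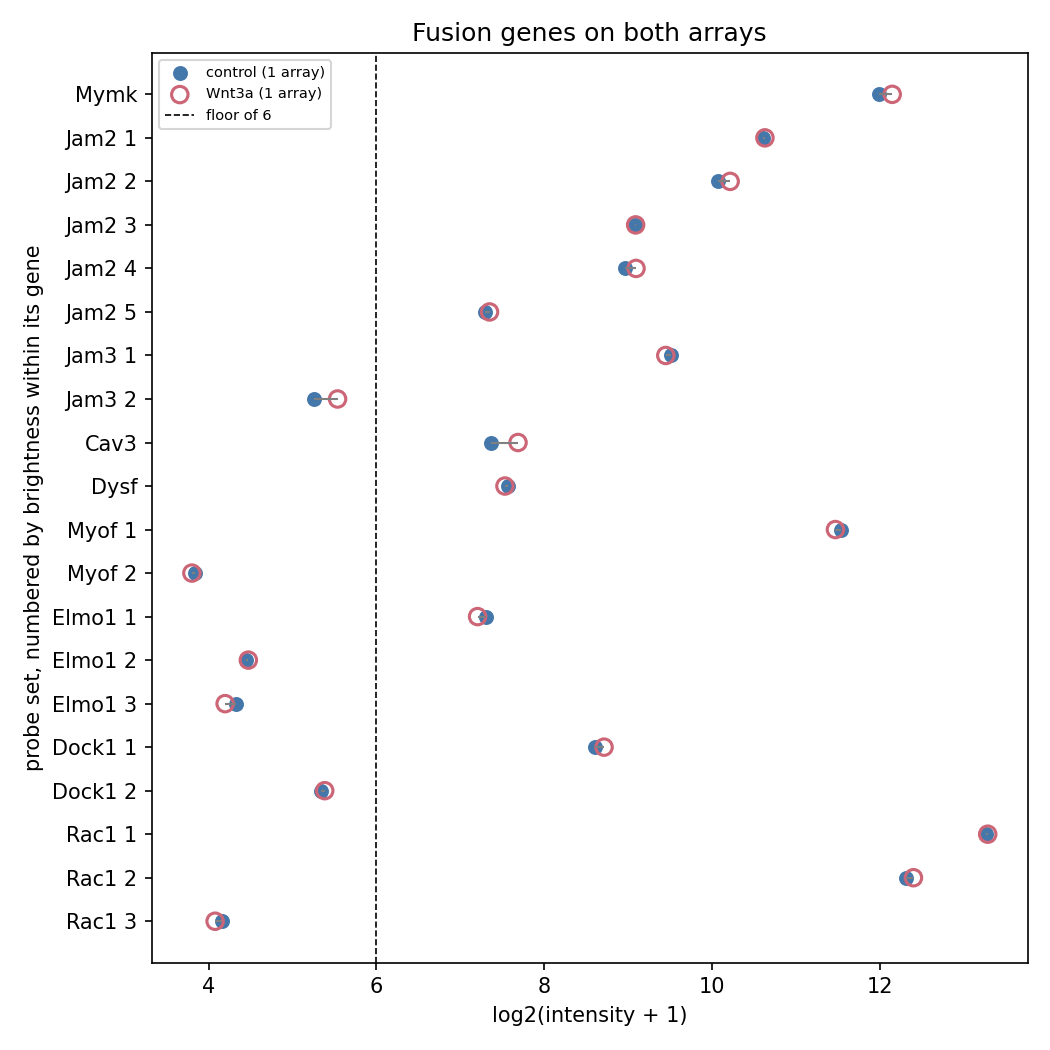
Log2(intensity + 1) of the 20 probe sets of the 9 fusion genes on the control array (filled) and the Wnt3a array (open), numbered by brightness within a gene, with a dashed line at the floor of 6. The symbols of an array pair nearly overlap in most lines, and 6 probe sets of Jam3, Myof, Elmo1, Dock1 and Rac1 lie below the floor on both arrays.

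Jam2 and Jam3 encode junctional adhesion molecules, immunoglobulin-type surface proteins that bind each other between neighbouring cells and are required for fusion of fast muscle precursors in zebrafish. Jam2 was read by 5 probe sets, all above the floor on both arrays. The brightest went from 1552 to 1583, the next from 1071 to 1187, and the others from 539 to 543, from 498 to 545 and from 156 to 162. All 5 were higher with Wnt3a, by 0.03, 0.15, 0.01, 0.13 and 0.05 in that order, with a mean of 0.07. A single direction over 5 probe sets at the floor was found for 25.1% of the 175 genes with that many. These probe sets share the same RNA and hybridisation, so they repeat the reading and not the experiment. Jam3 lay at 731 in the control and 697 with Wnt3a on its brightest probe set, a difference of -0.07. Its other probe set, below the floor at 37.3 and 45.4, gave 0.28 in the other direction. The 2 readings of Jam3 therefore disagree in sign. F11r, another gene of this family, was at 9.33 and 9.56, higher by 0.22.

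Cav3 showed the largest difference of the 9. It encodes caveolin-3, the muscle form of the protein that shapes caveolae, small pits of the plasma membrane, and a binding partner of dysferlin. Its single probe set read 164 in the control and 205 with Wnt3a, or 7.37 and 7.69 on the log2 scale, a 1.25-fold higher value. Over all measured genes, 5.38% differed by at least this size. Among the 1662 genes of like brightness 7.40% did, with a central 95% from -0.38 to 0.43, which includes the Cav3 value. No second probe set was there to repeat it.

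Because Cav3 was the 1 member past 1.2-fold, the sequence before its RefSeq start site is shown, with that of Dysf, whose protein works at the same membrane and whose transcript differed by -0.04. RefSeq's promoter table for GRCm38.p6 held 5 of the 9 genes (Cav3, Dysf, Myof, Elmo1 and Dock1), with 7 start sites. The lines below give the 250 bases upstream of the start, 5′ to 3′, on the plus strand at chr6:112459255-112459504 for Cav3 and chr6:84008348-84008597 for the first of 2 Dysf starts. Capitals mark matches to the E-box, CANNTG, the short sequence that myogenic factors such as MyoD and myogenin bind.
Cav3: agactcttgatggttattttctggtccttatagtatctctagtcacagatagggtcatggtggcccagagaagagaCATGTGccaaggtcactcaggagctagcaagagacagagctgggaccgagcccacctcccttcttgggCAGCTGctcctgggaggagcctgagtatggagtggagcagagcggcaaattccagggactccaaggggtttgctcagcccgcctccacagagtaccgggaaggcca
Dysf: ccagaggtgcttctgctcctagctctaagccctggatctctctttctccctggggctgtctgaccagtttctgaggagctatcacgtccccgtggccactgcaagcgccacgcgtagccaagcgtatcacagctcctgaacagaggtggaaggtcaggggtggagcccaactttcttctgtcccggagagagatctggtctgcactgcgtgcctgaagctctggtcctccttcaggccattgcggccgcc
The Cav3 window held 2 E-box matches, CATGTG and CAGCTG, which begin 174 and 106 bases before the start. The Dysf window shown held 0, as did its other start and that of Myof. Dock1 had 1 match (CACATG) and Elmo1 had 1 at the first of its 2 starts (CAGGTG). At least 1 E-box match was present in 66.2% of all 32851 windows of this length, and CAGCTG, which is itself an E-box, in 13.0%. CTTTGA, the core of the TCF/LEF site through which β-catenin acts, was searched on both strands as well and had 0 matches in the 7 windows of these genes, against 13.8% of all windows. A match is a description of the letters only.

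Other genes of caveolae differed in both directions beside Cav3. Cavin1, a coat protein needed to form caveolae, was 1.33-fold higher (10.04 to 10.46). Its difference of 0.41 became 0.19 as a mean over its 3 probe sets, of which only 1 reached the floor. Cavin2 was 1.25-fold higher, with 0.07 to 0.33 over 3 probe sets at the floor. Cavin3 and Cavin4, the latter a muscle form, differed by 0.03 and 0.01. The caveolins found in most cell types were lower. Cav1 went from 12.93 to 12.67 on its single probe set, a difference of -0.27 that shrank to -0.08 under spike-in scaling. Cav2 differed by -0.11, which turned to 0.07 under that scaling. Caveolin-3 and caveolin-1 transcripts, each read by 1 probe set, thus differed with opposite signs, and did so in each scaling setting.

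Dysf and Myof encode ferlins, large calcium-binding membrane proteins. Dysferlin reseals torn muscle membranes, and myoferlin is abundant in myoblasts and needed for efficient fusion. Dysf read 189 in the control and 184 with Wnt3a on 1 probe set, a difference of -0.04. Myof read 2958 and 2834 on its brightest probe set, a difference of -0.06. That probe set can match several transcripts by its type. The other Myof probe set lay at 13.3 and 12.9, below the floor. Both ferlins were nearly level between the arrays, since 72.8% and 61.9% of measured genes differed by at least as much. Of their relatives, Fer1l4 was at 81.8 and 89.7, higher by 0.13, and Otof and Fer1l6 were below the floor on both arrays.

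Elmo1, Dock1 and Rac1 act in one chain. ELMO1 and DOCK1 together form an exchange factor that loads the small GTPase RAC1 with GTP, and active RAC1 drives the branched actin needed at the contact between fusing cells. Elmo1 read 157 in the control and 147 with Wnt3a, a difference of -0.10. Its dimmer probe sets, at 20.9 and 21.2 and at 19.1 and 17.3, were below the floor and differed by 0.02 and -0.13. Dock1 read 387 and 418, higher by 0.11, and 39.6 and 40.8 on a probe set below the floor. The 2 partners of the exchange factor differed in sign, each by less than 0.12.

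Rac1 read 9856 in the control and 9969 with Wnt3a on its brightest probe set, which by its type can match several transcripts, a difference of 0.02. A second one, specific by its type, read 5070 and 5399 and differed by 0.09. A further probe set, below the floor at 16.9 and 15.9, differed by -0.08. Of measured genes, 89.8% differed by at least as much as the brightest Rac1 probe set.

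Relatives of this chain that reached the floor differed by less than 1.2-fold on their brightest probe sets. Elmo2 was higher by 0.15 on its brightest probe set and 0.18 on its other one, and Elmo3 differed by -0.11. Dock5 was higher by 0.15, and by 0.26 on its other probe set at the floor. Dock2, a form known from blood cells, was higher by 0.10, but by 0.00032 as an average of its 3 probe sets, while Dock3 and Dock4 were below the floor. Rac3 was higher by 0.09, and Rac2 by 0.05, which became -0.06 as an average of its 2 probe sets. For Dock2 and Rac2, only the brightest probe set reached the floor. The negative value of Elmo3, like those of Elmo1, Dysf, Myof and Jam3, turned positive under spike-in scaling.

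**Figure D4:**
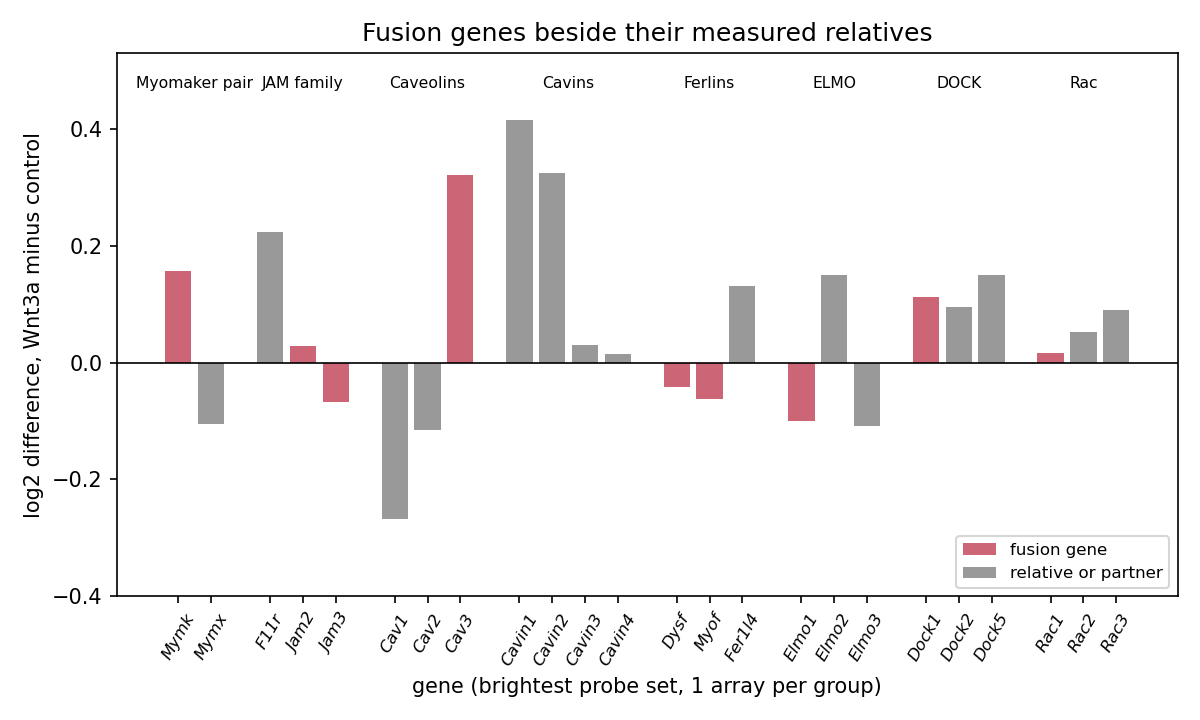
Log2 difference, Wnt3a minus control, of the fusion genes (red) and their measured relatives or partners (grey), each on the brightest probe set, with 1 array per group. Bars run from -0.27 for Cav1 to 0.41 for Cavin1, and values of both signs stand in each group but the cavins, DOCK and Rac genes, which under spike-in scaling is true of the caveolins only.

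The wider machinery was read through 4 lists of genes known from fusion or membrane repair. The median of 27 measured Rac and actin regulators was 0.07 (21 higher, 6 lower), and 2 were at least 1.2-fold higher. The counts of this list and of those that follow stand beside 47.3% of all measured genes higher, 51.2% lower and 4.04% at least 1.2-fold higher, and no test sets a list apart. Trio, a Rac exchange factor that acts downstream of M-cadherin, went from 9.95 to 10.54, but another of its probe sets gave -0.08. Its mean over 6 probe sets, of which 3 reached the floor, was 0.23. Arhgap10 (0.17) and Dock5 were higher by less. Iqsec1, an Arf6 exchange factor, differed by -0.15 on its brightest probe set, but by 0.04 on its other one. The negative sign also turned under spike-in scaling.

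The 19 measured genes of cell surface adhesion had a median of 0.04 (12 higher, 7 lower). Vcam1 and Itga4 encode a ligand and a receptor chain that bind each other between myoblasts. Vcam1 went from 10.60 to 9.97 and was 1.55-fold lower, with -0.51 to -0.63 on its 3 probe sets. Itga4 went from 6.41 to 6.95 and was 1.45-fold higher on the 1 of its 5 probe sets at the floor. The transcripts of these 2 genes thus differed in opposite directions, in each scaling setting. Itgb1, whose product pairs with that of Itga4, differed by -0.17 on its brightest probe set, or 0.02 under spike-in scaling. Cdon, a co-receptor at cadherin contacts, was 1.21-fold higher on its brightest probe set (0.27, but 0.13 on its other one). Cxadr (0.23, but -0.17 on another probe set) was higher by less, as was F11r.

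The 19 measured genes of membrane repair and caveolae had one of 0.05 (14 higher, 5 lower). Beside the cavins and Cav1, the largest differences were those of Pacsin3 and Capn1, a calpain protease, both higher by 0.17. For the 9 measured fusion signals and receptors it was 0.10 (6 higher, 3 lower). Fst, whose product follistatin blocks myostatin and favours fusion, was 5.39-fold higher and the only one past 1.2-fold. Ptger4 (0.20), Tgm2 (0.18) and Il4ra (0.11) followed it, and Mymx is given above. Tgm2, with 1 of its 6 probe sets at the floor, lay close to it (6.03 to 6.21), as did Il4ra (6.33 to 6.44). Under spike-in scaling the medians of the 4 lists lay between 0.23 and 0.29, against 0.19 for all genes.

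**Figure D5:**
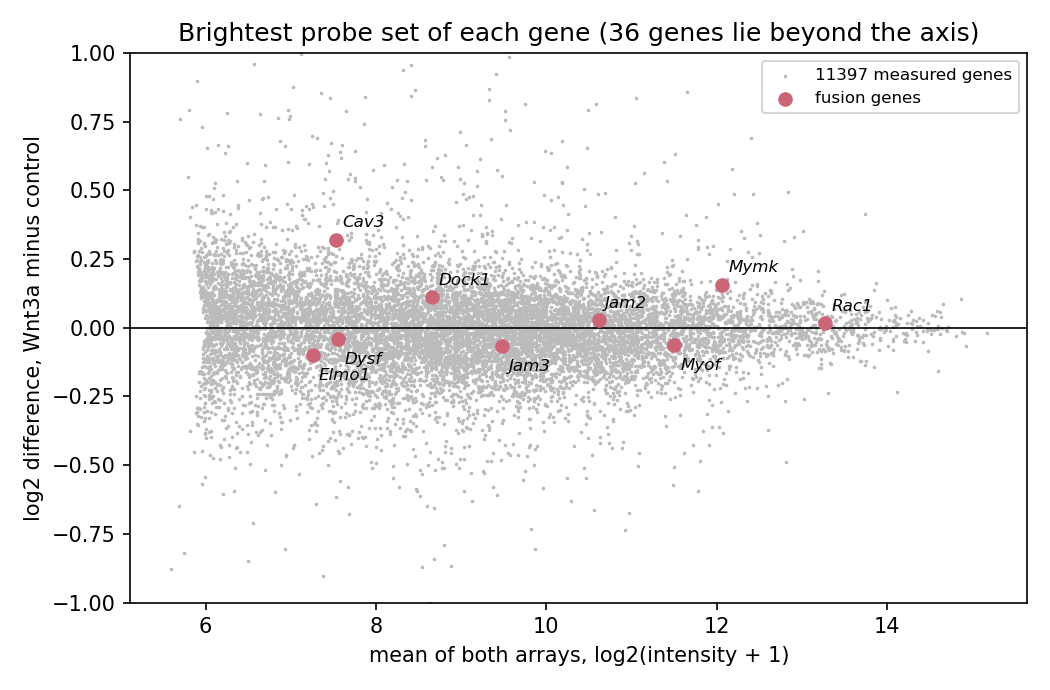
Log2 difference, Wnt3a minus control, against the mean of both arrays on the log2 scale for 11397 measured genes (grey) and the 9 fusion genes (red), 1 point per gene on its brightest probe set; 36 genes lie beyond the vertical axis. The fusion genes sit within the grey band at their brightness, with Cav3 nearest to its upper edge.

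Markers of other cells and of differentiation were read on the same arrays, and their part in the differences above was not tested. In bulk RNA, fewer cells of a type and less RNA per cell cannot be told apart. The 9 measured markers of differentiated muscle had a median of 0.06 (6 higher, 3 lower), and all 10 on the array had summed intensities of 21652 and 21734. Myog, the factor that marks entry into differentiation, was 1.41-fold lower, while Myh3 (0.11), Ckm (0.11), Actc1 (0.09) and Tnnc2 (0.06) were slightly higher. The 6 myoblast markers had a median of -0.05 (3 higher, 3 lower), including Myf5 (0.49), Des (0.32, or 0.11 averaged over its probe sets), Itga7 (-0.26), Myod1 (-0.13, averaging -0.05) and Pax7 (-0.12, but 0.12 on its other probe set), and sums of 25300 and 25778. The averages of Des and Myod1 each include a probe set below the floor. The signs of Myod1 and Pax7 turned under spike-in scaling, to 0.06 and 0.07.

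Of 8 endothelial markers 3 reached the floor, with Pecam1 and Cdh5 below it, and sums of 1251 and 1274. Eng (0.08) made up most of that sum, Kdr was equal on both arrays, and Tek crossed the floor (6.16 to 5.34). Of 8 leukocyte markers 5 did, none above 7, with Ptprc and Cd68 below the floor and sums of 573 and 568. On their brightest probe sets Laptm5 (-0.28), Cd3e (0.25), Lyz2 (-0.20), Fcer1g (-0.15) and Csf1r (-0.03) were these 5. Other probe sets at the floor went up to 0.21 for Laptm5 and 0.36 for Csf1r, with averages of -0.02 and 0.23. All 7 fibroblast markers, Pdgfra and Col1a1 among them, were below the floor, with sums of 230 and 238. Of 5 Schwann cell markers 3 reached it, with sums of 408 and 412. They were Mbp (-0.08, averaging 0.01), Sox10 (0.07, averaging 0.0034) and Ngfr (0.04, averaging -0.03). These averages include probe sets below the floor. Of 7 smooth muscle markers 4 reached the floor, Acta2 (0.33), Cspg4 (-0.22), Tagln (0.06) and Smtn (0.03), while Myh11 and Cnn1 were below it. Their sums were 9664 and 11436, a difference that lay mostly in Acta2, which young muscle cells also express.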

How the data were processed

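Expression had been measured on 2 Affymetrix arrays, from biotin-labelled cRNA of Trizol-extracted RNA, per the labels' protocols. The deposited values are intensities of probe sets on a linear scale (7.07 to 37075). Of the 45101 probe sets, 1689 held exactly the same value on both arrays, none of them from the fusion genes. Why they do so is not given. The submitters' processing notes name RMA, affy and limma, with no versions or settings. How the authors brought the values to a linear scale, and the genome build, are not given in the sources used here.

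Probe sets were taken where GEO's annotation names 1 gene, without the 64 control probe sets, and no symbol changed through the RefSeq table of GRCm38.p6 (34741 of 34945 matched). Each gene was represented by its brightest probe set. A pseudocount of 1 was added before logarithms, which understates differences of dim probe sets. No detection call was used, and the floor of 6 is a fixed brightness. Folds and counts were given and no test, since each group had 1 array. The number of arrays limits the precision.

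Named were the 9 members, up to 5 measured genes of each list with the largest differences, and, after their values were seen, further relatives of the members and undetected markers. One gene that the rule names, among the Rac and actin regulators, is not reported here. Members and lists were chosen with earlier results of these data known. The procedure was tested on simulated data. Alternatives were 2 other pseudocounts, quantile normalization, spike-in scaling, a loess correction (span 0.3), the mean over a gene's probe sets, the omission of probe sets with several possible transcripts, and 3 other floors. Probe sets counted as having several possible transcripts were those with names ending in _s_at or _x_at. Names ending in _a_at, such as that of Dysf, were kept. The tools were pandas 2.3.3, numpy 2.4.6 and statsmodels 0.14.6 in Python 3.11.15.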

Additional observations from a re-analysis of the deposited data

How the results depend on the processing

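Across the 10 alternative settings, the count of members at least 1.2-fold lower stayed at 0. The count at least 1.2-fold higher was 1 in each except 2. It became 0 with a floor of 8, where 6 members remained and Cav3 was not among them, and 3 under spike-in scaling (Mymk, Cav3 and Dock1). That scaling moved the median of the members from 0.02 to 0.21 and the share of measured genes at least 1.2-fold higher from 4.04% to 26.6%, with 0.919% lower. Of 61 differences of single members under the 7 settings that can change them, 51 moved by less than 0.12 and 10 by more, 9 of them under spike-in scaling. The other was Jam3, which became 0.10 as a mean over its probe sets. Cav3 ran from 0.30 to 0.51. Without probe sets that can match several transcripts, Myof was below the floor and Rac1 differed by 0.09. As means over their probe sets Elmo1 was below the floor and Rac1 differed by 0.0078. With 1 array per group no replicate could be left out, and differences of the size seen here cannot be told from variation between cultures. No paired analysis was possible because each group holds 1 array.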

Other observations

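Abi1 and Itgb1, both bright, gave readings of both signs over their own probe sets at the floor. This is common, since only 54.7% of the 5084 genes with several probe sets at the floor had a single sign. Among the fusion genes, Jam3, Elmo1 and Rac1 had both signs only through probe sets below the floor. Abi1, which encodes a subunit of the complex that links Rac to branched actin, differed by between -0.34 and 0.02 on its 3 probe sets at the floor. Wasl, an activator of branched actin, was higher on all 3, by 0.02 to 0.26. Itgb1, the integrin β chain that pairs with the product of Itga4, differed by between -0.17 and 0.0052 on 3. These genes were named after their values were seen.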
